A study of Rattus norvegicus with 64 samples.

Results

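The late healing of the rat urinary bladder augmented with an unseeded graft was described by comparing 8 arrays of bladder wall taken 180 days after surgery with 8 arrays taken 90 days after surgery. These 16 arrays were chosen by their labels (BAM and the day), out of 64 arrays in 8 groups. Male Wistar rats had part of the bladder removed (hemicystectomy), and the gap was closed with bladder acellular matrix (BAM), a bladder wall stripped of its cells. In the unseeded groups the graft carried no cells at implantation. In the seeded groups, of which the 8 arrays at 90 days and the 8 arrays at 180 days are used here for comparison, the BAM had been seeded with adipose-derived stem cells (ADSCs) cultured from the retroperitoneal fat of male Wistar rats. All groups had the same operation, and neither an unoperated bladder nor a sham operation was analysed here. The recipients were syngeneic, and the ages given in the labels are those of the fat donors. Each array held RNA of the reconstructed wall as a whole. A lower signal may therefore mean fewer cells of a type or less RNA per cell, and the measurement cannot tell these apart.

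An acellular graft is repopulated by the host. Urothelium spreads over its luminal surface, smooth muscle and vessels grow in from the edges, and macrophages clear and remodel the foreign matrix while presenting antigen on MHC class II molecules. Late remodelling of such grafts is known for the slow return of contractile muscle, the decline of the cell infiltrate and the exchange of the implanted matrix for host collagen.

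Signals are given as log2 intensity relative to the 75th percentile of all gene spots of the same array, so that 0 is the 75th percentile and a difference of 1 is a change of 2 times. A probe was tested where it was well above background on all 16 arrays, which 8625 of 30367 gene probes (28.4%) were. Means of the 8 groups were fitted to all 64 arrays with limma, and a probe was called where its p, adjusted by Benjamini-Hochberg, was under 0.01 and its signal differed by more than 1.5 times. On this rule 1074 probes (12.5%) were higher at 180 days and 439 (5.09%) were lower. At an unadjusted p under 0.05 there were 4713 probes in either direction.

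The brightest probes could not be compared between the days. A median of 1176.5 gene spots per array reached the scanner's ceiling at 90 days (lowest 432.0, highest 1293.0) against 659.5 at 180 days (lowest 353.0, highest 868.0), and the 75th percentile of intensity had a median of 2667.3 against 1297.8. Dividing the same ceiling by a lower 75th percentile gave a rise: of 237 tested probes saturated on all 16 arrays, 236 were called higher, with a median difference of 0.83. In all, 1050 tested probes were saturated on 1 or more of the 16 arrays, and these made up 592 of the 1074 probes called higher and 17 of the 439 called lower. The gene and list results that follow therefore rest on probes that were unsaturated on all 16 arrays, unless a gene is said to be saturated. Of 7575 such probes 482 (6.36%) were higher at 180 days and 422 (5.57%) were lower, with a median difference of -0.02 over all of them.

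**Figure D1:**
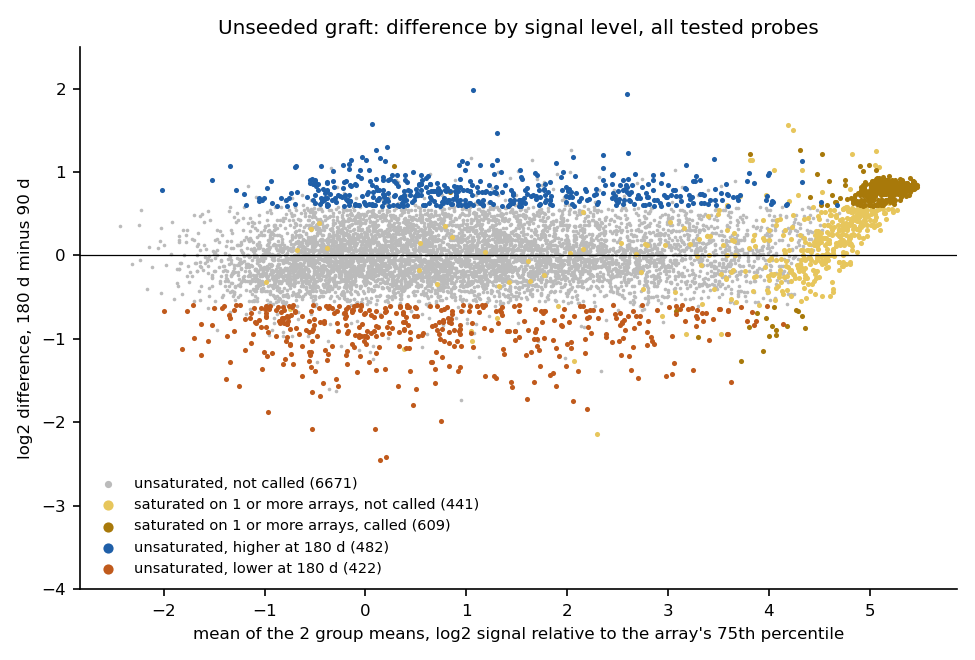
Mean signal level of each of the 8625 tested probes (x axis, log2 relative to the 75th percentile) against its difference between 180 and 90 days (y axis, log2). Saturated probes (yellow and brown) bend upwards at the bright end, where the 237 probes at the ceiling on all arrays have a median of 0.83, while the 7575 unsaturated probes have medians of -0.03 to 0.02 in 7 bins of signal level.

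Array measures differed between the groups as follows, and their part in the results was not tested. The median background was 342.5 at 90 days (321.0 to 365.5) and 155.2 at 180 days (138.0 to 171.0), and each group lay on a slide of its own, scanned on the same date, so that slide and day cannot be told apart. Relative to the 75th percentile, the 10 spike-in control probes, which report RNA added in the laboratory, differed by -1.91 to -0.85 (median -1.62) at 180 days. Their signal per array had a median of 1.38 at 90 days and of -0.155 at 180 days. In the seeded graft these medians were 1.27 and -0.04. At 90 days replicate 8 was dim, with 35.5% of gene spots well above background against 53.0% to 58.5% on the other 7 arrays. Replicate 5 at 90 days stood apart in its expression: its median correlation with the other arrays of its group, across unsaturated tested probes, was 0.837, against 0.911 to 0.953 for the others, and 0.965 to 0.976 at 180 days. Each array's nearest neighbor among the 16 nevertheless belonged to its own group. Where a call changed, most list results are therefore given also without replicates 5 and 8 at 90 days.

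Probes were joined to genes through their RefSeq accession, and the brightest tested probe stood for each gene. Of 4925 genes with an unsaturated brightest probe, 315 (6.40%) were higher at 180 days and 136 (2.76%) were lower. Without replicates 5 and 8, 356 genes (7.23%) were higher and 195 (3.96%) were lower, and 260 of the 315 rises and 116 of the 136 falls were among them. Of 387 genes with several unsaturated probes, 65 had a call on some probes only, 3 had the same call on all probes, and none had opposite calls. Gapdh, a glycolytic enzyme often used as a reference, differed by 0.40, 0.25 and -0.49 on its 3 probes, none of them past the fold threshold but 2 of them with an adjusted p under 0.01 and opposite signs.

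Antigen presentation genes of the MHC class II list had the lowest median of the lists with 4 or more unsaturated genes. Of 11 members 7 were tested and 6 unsaturated. Of these 6, 2 were lower at 180 days and none higher, against 2.76% lower and 6.40% higher of all 4925 genes. Their median was -0.69 against 0.01 over all these genes. RT1-Db1, the beta chain of the rat DR-like molecule, ranged from 1.61 over a median of 3.51 to 4.50 at 90 days and from 0.60 over 2.10 to 3.26 at 180 days. The groups overlapped, with 3 of the 8 arrays at 180 days below every array at 90 days. The difference was -1.37 ± 0.411 (SE, n = 8 and 8, limma adjusted p = 0.00433). RT1-Db1 lost its call in 5 of the 16 fits that left out 1 array (90 days replicates 2 and 4, 180 days replicates 1, 6 and 8), where it differed by -1.29 to -1.18, and when limma was fitted to the 16 arrays alone (adjusted p = 0.0161). A second probe of the gene, which belongs to a multigene family whose probes may share signal, differed by -0.85 ± 0.324 and was not called (limma adjusted p = 0.0248).

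RT1-DMb, a chain of the molecule that loads peptides onto class II, had a median of 0.84 at 90 days (-0.56 to 1.51) and -0.31 at 180 days (-0.74 to 0.31). It fell by 0.93 on the log2 scale (SE 0.260, limma adjusted p = 0.00229), with 1 of 8 arrays below the 90 day range, and with the 16 arrays alone it was not called (adjusted p = 0.0109). RT1-Da, the alpha chain of the DR-like molecule, differed by -0.77 ± 0.337 and Ctss, the protease that trims the invariant chain, by -0.61 ± 0.285, neither past the threshold. RT1-Bb and RT1-DMa differed by 0.02 and 0.05. Cd74, the invariant chain itself, was saturated on 4 arrays.

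Replicate 5 held the lowest value of the 90 day group for all 7 tested class II genes. Without replicates 5 and 8, 4 of the 6 genes were lower (RT1-Db1 -1.77 ± 0.426, RT1-Da -1.26 ± 0.326, RT1-DMb -1.26 ± 0.259 and Ctss -1.01 ± 0.271), and the median of the list was -1.13. Of all genes 3.96% were lower in that fit. The mean signal over the 6 genes was 1.77 ± 0.891 (SD, n = 8) at 90 days and 1.16 ± 0.356 at 180 days. In the seeded graft it was 1.29 ± 0.580 at 90 days and 1.34 ± 0.546 at 180 days.

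Class II promoters share a CCAAT element known as the Y box. The 2 promoters below are shown because RT1-Db1 fell whereas RT1-Bb, its neighbor in the same region, did not pass the test. Both sequences are the 250 bases before the annotated start (RefSeq, assembly GRCr8, minus strand of chromosome 20, written 5′ to 3′), RT1-Db1 at chr20:4560163-4560412 and RT1-Bb at chr20:4604119-4604368. Capitals mark the letters CCAAT or their reverse complement ATTGG.
RT1-Db1: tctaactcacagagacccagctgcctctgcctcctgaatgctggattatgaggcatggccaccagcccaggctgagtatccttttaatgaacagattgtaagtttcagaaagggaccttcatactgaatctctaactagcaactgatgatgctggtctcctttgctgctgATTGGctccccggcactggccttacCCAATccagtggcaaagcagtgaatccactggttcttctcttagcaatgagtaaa
RT1-Bb: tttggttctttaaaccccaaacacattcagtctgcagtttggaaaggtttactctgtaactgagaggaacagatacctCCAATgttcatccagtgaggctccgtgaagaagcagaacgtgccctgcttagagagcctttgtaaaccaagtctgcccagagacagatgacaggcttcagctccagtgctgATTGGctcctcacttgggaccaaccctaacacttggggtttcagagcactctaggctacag
Each window held the motif 2 times, on the 2 strands together. Of 9 class II list members with a promoter sequence, the motif was in 8 (all but Ctss), and it was in 34.0% of all 33469 promoters. These letters were thus present in both promoters, and nothing about a factor was measured.

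By their brightest probes, macrophage genes gave no call with all arrays and 4 calls without replicates 5 and 8. Of 20 tested members 8 were saturated, and of the 12 others none was called in either direction, with a median of -0.26. Cd68, a lysosomal glycoprotein of macrophages, ranged from 0.08 over 3.19 to 4.43 at 90 days and from -0.29 over 1.82 to 2.86 at 180 days. The lowest value at 90 days was that of replicate 5, and the next was 2.82. Its difference of -1.38 ± 0.459 missed the threshold narrowly (limma adjusted p = 0.0105) and passed it in the fits that left out 90 days replicate 5 or 180 days replicate 1, 4 or 5 (-1.80 to -1.46).

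Without replicates 5 and 8, Cd68 (-1.90 ± 0.449), Trem2 (-1.61 ± 0.524), a lipid-sensing receptor of macrophages, Adgre1 (-1.48 ± 0.413), which encodes F4/80, and Ctss were lower, and the median of the 12 genes was -0.56. Of all genes 3.96% were lower there. Ctss stands in both immune lists. Cd163, a scavenger receptor, and Aif1, an actin-binding protein of macrophages, differed by -0.02 and 0.14 with all arrays. Aif1 had 2 tested probes, and its dimmer one was called with all arrays. Ncf1, a subunit of the phagocyte oxidase and the single tested neutrophil gene, differed by -0.76 ± 0.356 with all arrays and by -1.16 without replicates 5 and 8, where it was called, as it was without replicate 5 alone (-1.09). Il34, a ligand of the macrophage growth factor receptor, went the other way: it rose from a median of 1.93 (1.45 to 2.38) to 2.68 (2.17 to 2.94), by 0.73 ± 0.144 (limma adjusted p = 2.50e-05). All but 2 of its values at 180 days lay above every value at 90 days. Of the 5 interleukin and TNF family genes Ltb, or lymphotoxin beta, was lower without replicates 5 and 8 (-1.14 ± 0.312, against -0.70 ± 0.317).

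**Figure D2:**
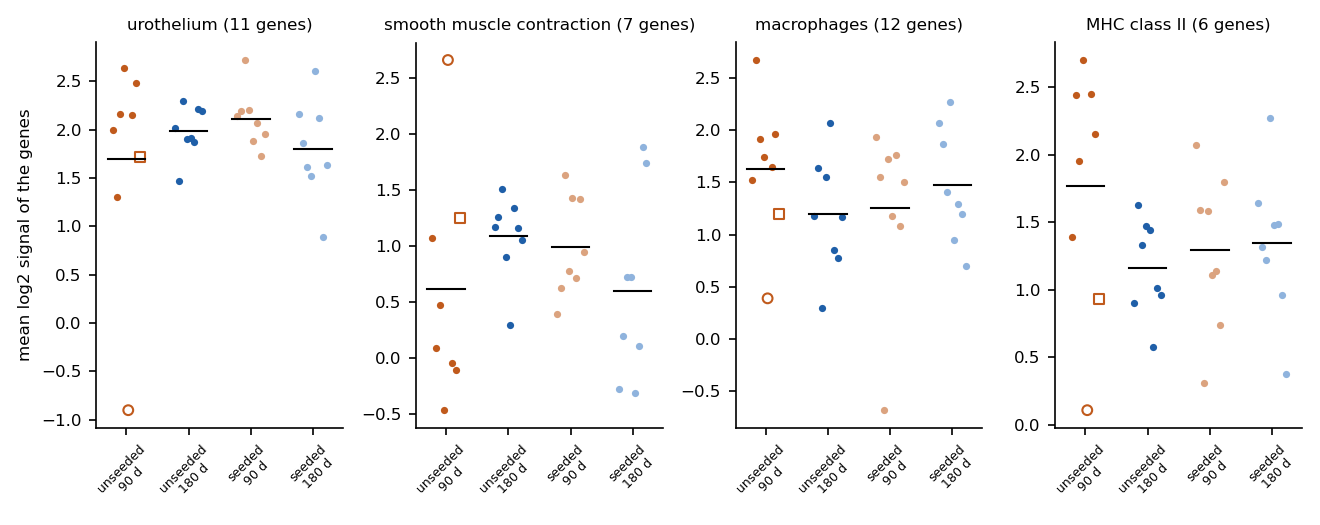
Mean log2 signal (y axis) of the unsaturated genes of 4 lists on each array, for the unseeded and the seeded graft at 90 and 180 days, with a line at the mean of 8 arrays. At 90 days in the unseeded graft, replicate 5 (open circle) has the lowest urothelium, macrophage and class II values (-0.90, 0.39 and 0.11) and the highest smooth muscle value (2.66), and replicate 8 is drawn as an open square.

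Other leukocyte genes were mostly too dim to test. None of the 24 T and cytotoxic lymphocyte genes on the array and none of the 11 mast cell genes was well above background on all 16 arrays. Cd3e, a chain of the T cell receptor complex, was well above background on 3 arrays at 90 days and on 0 at 180 days. The largest rise among the named genes nevertheless belonged to Mcpt9, of the mast cell protease family, which is not on the mast cell list. It ran from -1.51 over -0.08 to 1.89 at 90 days and from -1.22 over 2.10 to 4.42 at 180 days, a difference of 1.99 ± 0.600 (limma adjusted p = 0.00461). Among the arrays at 180 days 4 (replicates 2, 3, 4 and 7) lay at 3.41 to 4.42 and the other 4 at -1.22 to 0.80, inside the range at 90 days. Its call was lost in 6 of the 16 fits without 1 array (90 days replicates 1 and 5, 180 days replicates 2, 3, 4 and 7), where it was 1.65 to 1.89, and with the 16 arrays alone (adjusted p = 0.0542).

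Interferon-stimulated genes (13 tested, 8 unsaturated) had a median of -0.35 and no call, and complement genes (13 tested, 6 unsaturated) a median of -0.18 and no call. Without replicates 5 and 8 Ifi44, an interferon-induced gene, and C2, a component of the classical pathway, were lower. A dimmer probe of C2 was called with all arrays (-1.30 ± 0.401). The mean signal of the interferon genes spread from 0.80 to 2.84 at 90 days and from 0.90 to 1.30 at 180 days. Of 8 unsaturated chemokine genes 1 was higher, against 6.40% of all genes. This was Cxcl16, a membrane-bound chemokine, which rose by 0.68 ± 0.162 (limma adjusted p = 3.60e-04). Replicate 5 had its lowest value, 0.77 against a median of 2.34, and without that array the difference was 0.48 and not called. Cxcl16 was also not called without replicates 5 and 8 (0.40), where Ccl19, a chemokine of lymphoid tissue, was lower (-1.60, against -1.24 with all arrays), as it was without replicate 8 alone (-1.48). A2m, the alpha-2-macroglobulin that serves as an acute phase protein in the rat, was higher at 180 days, with a median of 3.08 (2.24 to 3.81) against 1.72 (1.13 to 2.41), a difference of 1.21 ± 0.250 (limma adjusted p = 4.54e-05). It was the single call among 4 unsaturated acute phase genes, against 6.40% of all genes called higher. A second probe of A2m differed by 0.61 ± 0.253 and was not called.

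Smooth muscle genes had the highest median of the lists with 4 or more unsaturated genes, but no single call with all arrays. Of 21 tested members 14 were saturated on 1 or more arrays. Myh11 (smooth muscle myosin), Actg2 (enteric smooth muscle actin) and Tagln (transgelin) were so on 14 to 16 arrays, and their differences cannot be read. Others were saturated on few arrays, Cnn1 (-0.23 ± 0.440) and Flna (0.12 ± 0.220) on 1 and Smtn (0.52 ± 0.257) on 2. None of these was called with all arrays. The 7 unsaturated members had a median of 0.61, and 6 of them were above 0. Hspb6, a small heat shock protein of muscle, ranged from 1.09 over 1.73 to 4.66 at 90 days and from 1.86 over 2.95 to 3.58 at 180 days, a difference of 0.73 ± 0.386 (limma adjusted p = 0.112). The value of 4.66 belonged to replicate 5, which was the highest of its group for all 7 genes. Without that array alone Hspb6 was called (1.09).

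Without replicates 5 and 8, 4 of the 7 were higher: Hspb6 (1.28 ± 0.367), Lmod1, an actin nucleator of smooth muscle (1.05 ± 0.319), Cald1, or caldesmon (1.00 ± 0.259), and Nexn, or nexilin (0.98 ± 0.280), and the median was 0.98. In that fit 7.23% of all genes were higher. Pln, the inhibitor of the calcium pump, differed by 0.60 ± 0.352 with all arrays. Of 6 unsaturated bladder receptor genes none was called. Tacr2, a tachykinin receptor of the detrusor, differed by 0.78 ± 0.483 and Chrm3, the muscarinic receptor that drives voiding, by -0.18 ± 0.334. The smooth muscle signal spread from -0.47 to 2.66 among the arrays at 90 days, an SD of 1.02, and from 0.29 to 1.51 at 180 days, an SD of 0.372.

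No urothelial gene whose brightest probe was unsaturated was called higher. Of 18 tested members 7 were saturated, Upk1a, Upk1b, Upk2, Upk3a and Krt18 among them. A dimmer, unsaturated probe of Upk1b, a uroplakin of the luminal membrane, was called higher (1.09 ± 0.337). Its call was lost in 5 of the 16 fits that left out 1 array (90 days replicates 2 and 5, 180 days replicates 3, 7 and 8; 0.81 to 1.03) and without replicates 5 and 8 (0.77), and it was -1.20 in replicate 5 against a median of 0.87. The 11 genes with an unsaturated brightest probe had a median of 0.43 with all arrays and of -0.07 without replicates 5 and 8. Replicate 5 was the lowest of the 90 day group for 10 of these 11 genes. Krt7, a keratin of the superficial layers, was -0.04 there and 3.70 at the median of the group, Cdh1, or E-cadherin, -0.74 and 2.89, and Krt5, the keratin of basal cells, -1.03 and 1.48. Tp63, the transcription factor of basal cells, was an exception, with 3.55 in replicate 5 and a median of 3.00. The single call, against 2.76% of all genes called lower, was Ocln, or occludin of the tight junction. It fell from 0.11 (-0.59 to 0.40) to -0.74 (-0.84 to -0.41), by 0.69 on the log2 scale (SE 0.118, limma adjusted p = 1.83e-06), with 5 of 8 arrays below the 90 day range.

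**Figure D3:**
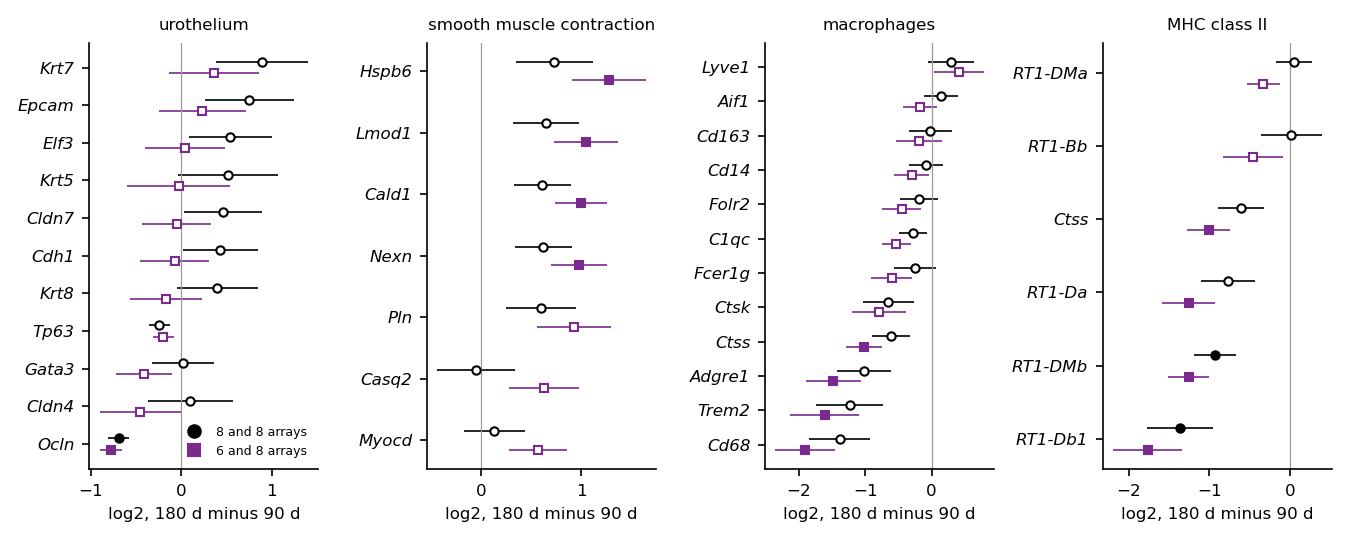
Difference between 180 and 90 days (x axis, log2, with SE) of each unsaturated gene of 4 lists, for 8 against 8 arrays (black circles) and with 90 days replicates 5 and 8 left out (purple squares). Filled symbols passed the test: 3 with all arrays (Ocln, RT1-DMb and RT1-Db1), and without the 2 arrays Ocln, 4 of 7 smooth muscle, 4 of 12 macrophage and 4 of 6 class II genes.

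In 4 of the 10 largest rises, replicate 5 at 90 days lay far below its group. Tmem79, a barrier protein of stratified epithelia, was -2.51 in replicate 5 and 0.96 at the group's median, and differed by 1.47 ± 0.409 with all arrays and by 1.03 without replicate 5, where it was not called. Degs2, which hydroxylates ceramides, was -1.39 there against a median of 1.77 and differed by 1.18 ± 0.375. Crabp2, a carrier of retinoic acid, was 0.17 there against 3.11 and differed by 1.16 ± 0.353. Both were 0.77 without replicate 5 and no longer called. Degs2 was also not called without 90 days replicate 2 or 180 days replicate 3, 4 or 8 (up to 1.15), nor Crabp2 without 90 days replicate 2 or 180 days replicate 1 (up to 1.11). Rnf208, a RING finger protein, was -3.23 there against a median of -0.19, and differed by 1.18 ± 0.307 with all arrays and by 0.74, not called, without replicates 5 and 8. With the 16 arrays alone none of these 4 was called (adjusted p = 0.0172 to 0.0327).

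For 4 other large rises no call was lost when any 1 array was left out. Cnih4, a cargo receptor of the endoplasmic reticulum, rose from 1.98 (1.70 to 2.31) to 3.20 (2.98 to 3.39), and Prmt9, an arginine methyltransferase, from -0.61 (-0.95 to -0.24) to 0.61 (0.35 to 0.69). Dync2i2, an intermediate chain of the dynein of cilia, went from -0.48 (-0.60 to -0.19) to 0.77 (0.44 to 0.99). In all 3 the groups were apart, with all 8 arrays at 180 days above every array at 90 days, and the differences were 1.23 ± 0.0712, 1.15 ± 0.0719 and 1.17 ± 0.0921. Pde9a, a phosphodiesterase of cyclic GMP, rose by 1.30 ± 0.241, from -0.59 (-1.58 to 0.95) to 0.91 (0.21 to 1.14), and there the groups overlapped.

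Of the 10 largest falls 9 lay well outside the spread within groups, and the other, RT1-Db1 (-1.37), overlapped between the days as described above. Pkib, an inhibitor of protein kinase A, had a median of 1.39 (highest 1.62) at 90 days and of -1.06 (-1.52 to -0.54) at 180 days, all of these below the 90 day values, a difference of -2.45 ± 0.119 or 5.46-fold (limma adjusted p = 8.75e-25). Slc32a1, the vesicular transporter of GABA and glycine, fell from 0.51 (0.15 to 0.76) to -1.61 (-1.84 to -1.14). Hivep3, a zinc finger transcription factor, fell from 4.38 (4.16 to 4.66) to 2.83 (2.56 to 3.17).

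The remaining large falls, RT1-Db1 aside, included Adam7 (-1.57 ± 0.205), a gene known from the epididymis, which fell slightly more than Hivep3 (-1.52 ± 0.0833). The others were Ahi1 (-1.38 ± 0.161), a protein of the ciliary base, Diras1 (-1.36 ± 0.111), a small GTPase, and Hrh4 (-1.30 ± 0.0894), the histamine H4 receptor. Cux2 (-1.28 ± 0.178), a homeobox factor, and Ppp1r35 (-1.28 ± 0.142), a centriolar protein, completed them. Apart from Adam7, where 7 arrays lay below the 90 day range, all 8 arrays at 180 days lay below every array at 90 days in each of these 9 falls. None of the 9 lost its call when any 1 array, or replicates 5 and 8, were left out.

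**Figure D4:**
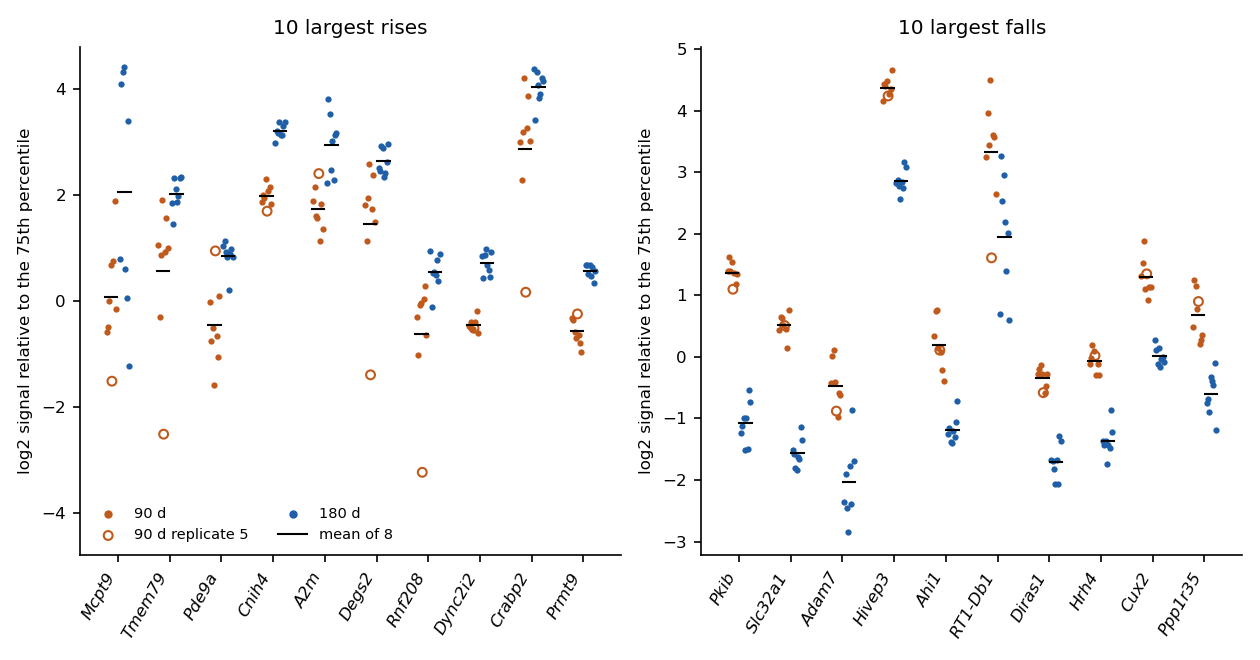
Log2 signal (y axis) of the genes with the 10 largest rises and the 10 largest falls on each of the 8 arrays at 90 days (orange) and at 180 days (blue), with the mean of each group as a line. Replicate 5 at 90 days (open circle) lies far below its group for Tmem79, Degs2, Rnf208 and Crabp2, while Pkib, Slc32a1 and Hivep3 show 2 tight groups that do not overlap.

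These falls were compared with the seeded graft over the same interval. Pkib was at -0.68 ± 0.225 (SD, n = 8) at 90 days in the seeded graft and at -0.90 ± 0.294 at 180 days, so that 1.37 ± 0.170 in the unseeded graft at 90 days was the one high group of the 4 late groups. The same was so of Slc32a1 (-1.24 and -1.45 in the seeded graft), Hivep3 (3.15 and 2.76), Diras1 (-1.38 and -1.37), and Hrh4 (-1.06 and -1.22). The change in the unseeded graft differed from that in the seeded graft for each (-2.23 ± 0.168 for Pkib, limma adjusted p = 2.81e-17). Cnih4, Dync2i2 and Prmt9 were likewise low in the unseeded graft at 90 days alone, at 1.99, -0.45 and -0.57 against 2.87, 0.64 and 0.30 in the seeded graft of that day.

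Across unsaturated tested probes this was common. The mean of the unseeded graft at 90 days lay outside the range of the other 3 late groups for 814 of the 904 called probes (90.0%) and for 5319 of all 7575 (70.2%). Of the 482 probes called higher it was the lowest group in 480, and of the 422 called lower the highest in 334. A call already places this group's mean below or above that of the unseeded graft at 180 days. The 90.0% and the counts for called probes are therefore partly built in. The 70.2% does not depend on a call. Any group's mean can lie outside the range of the other 3 by chance, however, and how often was not computed. Each of these 4 groups lay on a slide of its own, so that group and slide cannot be told apart in these counts. The slide of the unseeded graft at 90 days stood apart from the other 3 in these array measures as well: its median background was 342.5 against 107.5, 137.2 and 155.2, its 75th percentile 2667.3 against 1154.3, 1168.4 and 1297.8, and its saturated spots 1176.5 against 512.0, 616.0 and 659.5 (seeded at 90 days, seeded at 180 days and unseeded at 180 days). In the spike-in signal it did not stand apart, with a median of 1.38 against 1.27, -0.04 and -0.155 in the same order. Of 7536 probes unsaturated and well above background on all 32 arrays, the change differed between the grafts for 970 (12.9%), 297 with a more positive and 673 with a more negative difference in the unseeded graft. In the seeded graft itself 460 of these probes were higher and 20 lower at 180 days.

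Igfbp7, a secreted protein of the insulin-like growth factor binding family, had opposite signs in the 2 grafts. It fell from 1.91 (1.54 to 2.42) to 0.76 (0.40 to 1.18) in the unseeded graft, by 1.18 on the log2 scale (SE 0.126, limma adjusted p = 1.69e-11), whereas it was 0.71 ± 0.319 and 1.77 ± 0.134 in the seeded graft, a difference between the grafts of -2.24 ± 0.179 (limma adjusted p = 2.84e-16). Ppp1r35 had the same pattern (-0.80 and 0.30 in the seeded graft). Of the 10 unsaturated growth factor genes 2 rose beside it, against 6.40% of all genes. Igf2, the fetal insulin-like growth factor, differed by 0.71 ± 0.193, and by 0.58, not called, without 90 days replicate 4. With the 16 arrays alone Igf2 was not called (limma adjusted p = 0.0104). Erbb2, a receptor of the EGF family, differed by 0.99 ± 0.231 and was -0.56 in replicate 5. A second probe of Erbb2 was not called higher.

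Of 51 unsaturated genes on the matrix lists 3 (5.88%) were higher and none lower, near the 6.40% higher among all genes. No call was made among 2 unsaturated fibrillar collagen genes, 8 basement membrane genes, 4 small proteoglycan genes, 5 metalloproteinase and inhibitor genes and 8 fibrosis and myofibroblast genes, whose medians lay between -0.25 and 0.15. With replicates 5 and 8 left out, Col4a1, of basement membrane collagen (0.60 ± 0.161), Prelp, a small proteoglycan (0.65 ± 0.168), and Efemp2, or fibulin-4 (0.64 ± 0.139), were higher, which made 6 of the 51 (11.8%, against 7.23% of all genes). Of the fibrillar collagens 3 others were saturated. Tgfbi, a matrix protein induced by TGF-β, was the largest exception, at 3.99 (2.85 to 4.36) at 90 days and 4.91 (4.50 to 5.22) at 180 days, with all 8 later arrays above every earlier one and a difference of 1.13 ± 0.177 (limma adjusted p = 3.25e-07). Thbs3, of the thrombospondins, rose by 0.75 ± 0.180 and Efemp1, or fibulin-3, by 0.73 ± 0.212, the latter not called without 90 days replicate 6 (0.64). A second probe of Thbs3 was not called higher. Mmp2 and Mmp14, the gelatinase and its membrane activator, differed by 0.33 ± 0.155 and -0.33 ± 0.154, neither called.

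Of the signaling lists, Wnt genes were called in both directions. Among 9 unsaturated members Dkk3, a secreted relative of the Dickkopf inhibitors, and Wnt4 were higher, and the coreceptors Lrp5 and Lrp6 and the ligand Wnt1 lower. Of all genes 6.40% were higher and 2.76% lower. Lrp6 lay at 0.47 (0.02 to 0.76) at 90 days and at -0.20 (-0.45 to -0.06) at 180 days without overlap, a difference of -0.66 ± 0.172 (limma adjusted p = 0.00102), but its other probe differed by 0.38 ± 0.103, in the opposite direction, and was under the fold threshold. Wnt4 (0.84 ± 0.257) and Wnt1 (-0.73 ± 0.167) were not called without 90 days replicate 5, where they were 0.51 and -0.58. Lrp5 (-0.59 ± 0.156) lay at the fold threshold and lost its call in 7 of the 16 fits that left out 1 array (90 days replicates 1, 5 and 8, 180 days replicates 2, 3, 4 and 8), at -0.58 to -0.49. The calls left on the list without replicates 5 and 8 were Dkk3 (0.79) and Lrp6 (-0.63). With the 16 arrays alone Dkk3 was not called (limma adjusted p = 0.0105). Wnt4 was also not called without 180 days replicate 5 (0.63). Bmp2 (0.95 ± 0.242) and Bmp7 (0.96 ± 0.302) were the 2 calls among 10 BMP genes, against 6.40% of all genes called higher. Both were lowest in replicate 5 (-1.90 and -0.11) and neither was called without replicates 5 and 8 (0.63 and 0.78). Bmp7 lost its call in 8 of the 16 fits that left out 1 array (90 days replicates 1, 2 and 5, 180 days replicates 1, 4, 6, 7 and 8), at 0.77 to 0.95.

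Of the TGF-β list, with 8 unsaturated genes, Tgif1 alone was called, a repressor of SMAD target genes that rose from a median of 1.17 to one of 1.89, by 0.66 ± 0.0968 (limma adjusted p = 7.40e-08), with no overlap of the groups. It was 0.58, under the fold threshold, without replicates 5 and 8. Only 2 Hedgehog genes were measured well enough to test, and 1 of them, Disp1, which releases the ligand from the producing cell, rose by 0.63 ± 0.146. Its call was lost without 90 days replicate 3 or 4 (0.57 in both). Beside these single calls on the TGF-β and Hedgehog lists, 6.40% of all genes were called higher.

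Of 12 unsaturated endothelial genes 2 rose, against 6.40% of all genes. Cldn5, the claudin of endothelial tight junctions, went from -0.51 (-1.18 to 0.13) to 0.35 (0.16 to 0.83) with all 8 later arrays above the earlier ones, by 0.95 ± 0.166 (limma adjusted p = 2.81e-06). Erg, an endothelial transcription factor, rose by 0.59 ± 0.138 and, lying at the fold threshold, lost its call in 8 of the 16 fits that left out 1 array (90 days replicates 4, 6 and 8, 180 days replicates 2, 4, 5, 6 and 7), at 0.53 to 0.58. Without replicates 5 and 8 Erg was not called either (0.53). Pecam1, the general endothelial marker, differed by -0.06 ± 0.163. The median of the list was -0.09.

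Genes of the cell's basic functions showed single calls, where 6.40% of all genes were higher and 2.76% lower. Of 51 unsaturated respiratory chain genes Cox6b1 rose (0.63 ± 0.0841) and Cox6b2, its testis-type isoform, and Cox7c, both of cytochrome oxidase as well, fell (-0.81 ± 0.142 and -0.62 ± 0.132), with a median of 0.04. A second probe of Cox6b1 was not called higher. Cox7c was not called without 90 days replicate 1 or 5 or 180 days replicate 5 (-0.58 to -0.53). It was also not called without replicates 5 and 8 (-0.51), where Ndufa4 and Ndufa6, of cytochrome oxidase and complex I, were higher (both 0.61, against 0.48 and 0.58 with all arrays). Of 15 cholesterol synthesis genes Lss, lanosterol synthase, rose from -0.23 (-1.14 to 0.15) to 0.57 (0.37 to 1.29), by 0.94 ± 0.156. Of 18 heat shock genes Bag3, a co-chaperone of muscle, rose by 0.74 ± 0.137, in 7 of 8 arrays above every array at 90 days. Of 80 tested ribosomal protein genes 75 were saturated, and the 5 others had a median of -0.04. No call was made among 8 cell cycle genes, 17 immediate early genes, 18 hypoxia and glycolysis genes, 7 adipocyte genes, 6 prostaglandin genes and 8 housekeeping genes, with medians between -0.14 and 0.22. When replicates 5 and 8 were left out, Hk1, or hexokinase (0.68 ± 0.109), Slc2a4, the insulin-regulated glucose transporter (0.95 ± 0.246), and Hpgd, which inactivates prostaglandins (0.88 ± 0.271), were higher and Ier5, an immediate early gene (-0.66 ± 0.135), was lower.

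**Figure D5:**
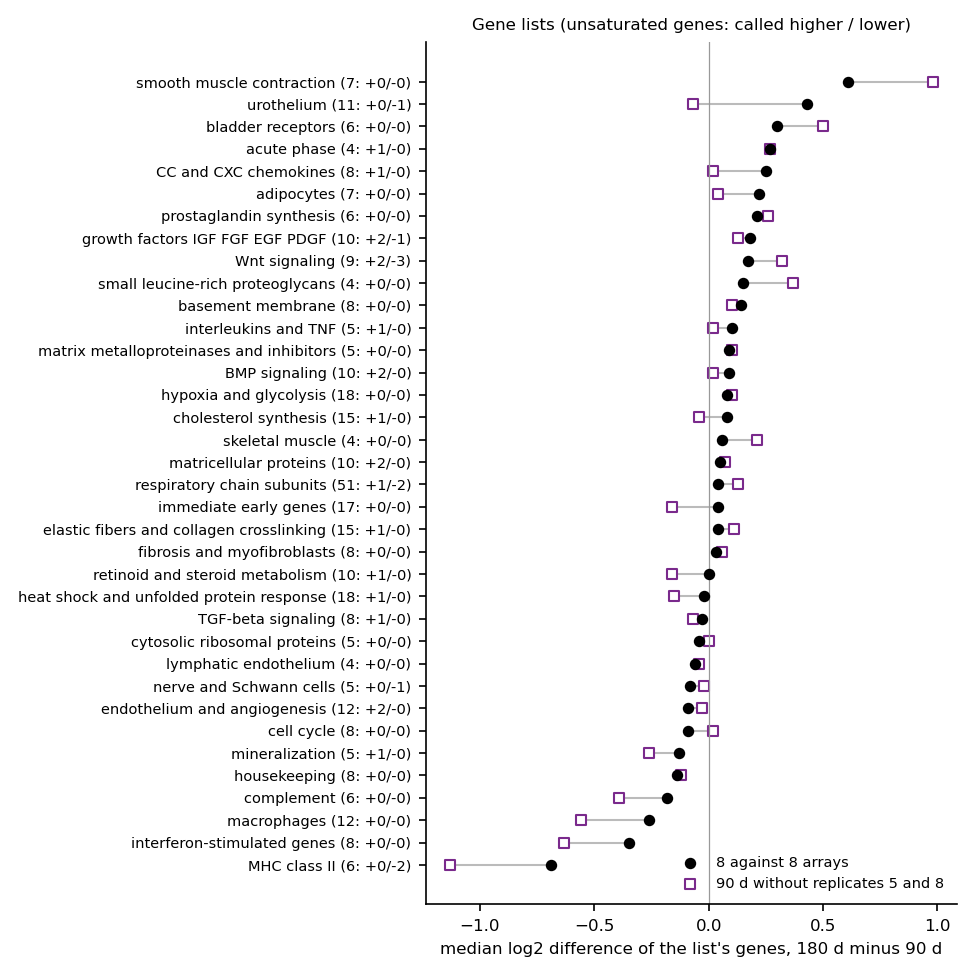
Median difference between 180 and 90 days (x axis, log2) of the unsaturated genes of each list with 4 or more, with all arrays (black) and without 90 days replicates 5 and 8 (open squares). Beside each name stand the number of genes and those called higher and lower. Smooth muscle contraction is at the top (0.61, then 0.98) and MHC class II at the bottom (-0.69, then -1.13), and urothelium moves from 0.43 to -0.07.

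Markers of tissues next to the bladder bear on what was sampled. None of 13 genes of the male accessory glands was well above background on all 16 arrays, and Pbsn, or probasin, was so on 2 arrays at 90 days and on 1 at 180 days. Adipoq, the adipocyte hormone, was well above background on 6 arrays at 90 days and on 3 at 180 days. The skeletal muscle signal (4 genes) was 1.92 in 90 days replicate 5 and -0.55 to 0.61 on the other 7 arrays, against -0.44 to 0.35 at 180 days. Ckm, the creatine kinase of striated muscle, was 2.30 in that replicate, with a median of -0.14 at 90 days and of 0.24 at 180 days. Eno3, the muscle enolase, was 3.73 there against medians of 0.02 and 0.72. Tnni2, a skeletal muscle troponin on the same list, went the other way. It was -0.67 in that replicate, the lowest value of its group, against medians of 1.02 and 1.03. Eno3 differed by 0.15 with all arrays, not called, and by 0.72, called, without replicates 5 and 8. Th, tyrosine hydroxylase of catecholamine neurons, was the single call among 5 nerve genes, at 0.30 (-0.18 to 0.59) and then -0.76 (-0.88 to 0.33), where 7 of 8 arrays lay below the 90 day range. It fell by 0.91 on the log2 scale (SE 0.115). Of all genes 2.76% were called lower.

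The arrays varied less at 180 days than at 90 days. The median SD of an unsaturated tested probe was 0.285 at 90 days and 0.179 at 180 days, and 83.4% of 7575 probes had the larger SD at 90 days. Without replicates 5 and 8 the median SD at 90 days was 0.214 and that share was 67.1%. The urothelium signal spread with an SD of 1.13 at 90 days, of 0.467 without the 2 arrays, and of 0.263 at 180 days. No probe was well above background on all 8 arrays of one day and on none of the other.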

How the data were processed

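RNA of reconstructed bladder wall was hybridized to 1-color Agilent rat arrays of 62976 spots. The authors deposited the scanner output of each array, made per the file headers with Agilent Feature Extraction 12.0.1.1, which subtracts background, and the values used were its processed signals, a linear intensity. The authors also deposited a series matrix of intensity values, which served as an alternative; in it 1 array lacks values for 26650 spots. Here control and outlier spots were dropped, signals were converted to log2 without a pseudocount, the 75th percentile over gene spots of each array was subtracted, and spots of one probe were averaged. A probe counted as detected on an array if the share of its spots well above background reached 0.5, and as saturated if any spot was. Among tested probes 16 array values were missing and stayed out of the fit. RefSeq accessions gave names to 18758 of 22372 probes (assembly GRCr8).

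The test was limma 3.58.1 under R 4.3.3, with one mean per group and no covariate, and the difference from the seeded graft was a contrast of both changes. It was tested on simulated data. The number of arrays limits the precision, and p-values measure the spread between arrays labeled as biological replicates. Named genes are the 10 largest rises and falls, up to 2 rises and 2 falls of each list (without a call, its 2 brightest genes), and defining markers, of which 1 is not reported here; other list members and second probes were chosen after their values were seen. Members and lists were chosen with earlier results of these data known, and probes at the scanner's ceiling were set aside after seeing the data. Alternatives were other scalings, quantile normalization, normexp with an offset of 50, the series matrix, other filters, fits and thresholds, the replicate block, and leaving out arrays. Replicate numbers did not pair the samples.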

Additional observations from a re-analysis of the deposited data

Results flagged for a closer look

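A sample far from the other 7 of its group (Dixon's test, which chance meets in about 1 of 20 groups) was found in 34 of 264 groups of 8 values; 21 of the 24 at 90 days were replicate 5. Log2 signals of that array that lay lowest were Bmp2 -1.90 (next 0.01), Cd68 0.08 (2.82), Degs2 -1.39 (1.13), Fabp4 0.76 (2.13), Junb 2.15 (3.34), Ncf1 -0.97 (1.15), Pparg 0.04 (2.69), Rnf208 -3.23 (-1.02), Trpv4 -0.20 (1.83) and Wnt4 -2.86 (-0.72), and the mean signals of urothelium (-0.90), adipocyte (0.48) and mineralization genes (-0.29). Those that lay highest were Eno3 3.73 (0.75), Gapdh 4.28 (3.63), Prelp 2.94 (2.08), Ptgs1 2.44 (1.65) and Thbs3 2.02 (0.99), and the mean signals of skeletal muscle (1.92) and respiratory chain genes (3.21). Its correlation with the group was 0.837. Replicate 8 at 90 days lay lowest for C1r (2.21), for spots well above background (35.5%) and for saturated spots (432.0).

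At 180 days 10 such samples were spread over 4 arrays. Replicate 3 lay apart for Lss (1.29), Mcm7 (0.13), Ogn (1.98), Th (0.33) and the mineralization genes (0.50), replicate 5 for Ckm (-1.25), Pde9a (0.21) and Wnt4 (1.77), replicate 6 for Eno1 (3.10) and replicate 7 for Cdh3 (-0.48).

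The change from 90 to 180 days differed from that in the seeded graft for 20 named genes (limma adjusted p below 0.01 and a ratio over 1.5). It was more negative in the unseeded graft, on the log2 scale, for Ppp1r35 (-2.38), Igfbp7 (-2.24), Pkib (-2.23), Adam7 (-2.14), Wnt1 (-1.91), Slc32a1 (-1.87), Ahi1 (-1.77), Cux2 (-1.67), Th (-1.60), Cox7c (-1.48), Cox6b2 (-1.47), Diras1 (-1.37), Hrh4 (-1.14), Hivep3 (-1.13), Lrp6 (-1.09) and Ocln (-0.87). It was more positive for Dync2i2 (1.19), Prmt9 (1.05), Cnih4 (1.00) and Tgif1 (0.59).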

How the results depend on the processing

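Counts here are over all tested probes, saturated ones included, unless said otherwise. Without a filter on dim probes the median difference moved to -0.24 and 2850 probes changed (1583 higher and 1267 lower; 998 and 1251 unsaturated), and 2974 differed from the seeded graft (2412 unsaturated). At a fold change over 2, 173 changed (46 higher, 127 lower; 38 and 125 unsaturated) and 589 differed (453 unsaturated). With 1 probe per gene 604 changed (466 and 138; 311 and 133 unsaturated) and 521 differed (379 unsaturated). With saturated probes left out, which was chosen after seeing the data, 897 changed (479 higher) and 938 differed. Quantile normalization gave 567 higher and 464 lower, so that 55.0% of calls were higher in place of 71.0%. Leaving out 1 array at a time gave 1433 to 1559 changed probes, 1013 to 1112 higher and 395 to 465 lower (433 to 525 and 380 to 444 unsaturated), and 1473 to 1596 that differed (912 to 1029 unsaturated). Same-numbered arrays of the 2 days deviated together with a correlation of -0.384 to 0.421, over 0.1 in 4 of 8 pairs, and 3 of 16 arrays correlated best with their own number; with the replicate number as a block 1515 probes changed (1075 and 440; 483 and 423 unsaturated) and 1540 differed (969 unsaturated). No value changed sign among calls. Without 90 days replicates 5 and 8, 14 named genes lost and 8 gained a call (saturated markers included), and with the 16 arrays alone 13 lost theirs. Among these 13 were Dkk3, Igf2, Bmp2, Cxcl16, Wnt1 and Wnt4 (limma adjusted p = 0.0104 to 0.0910). The cause was not tested.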

Other observations

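Probes without a gene name fell more often than named ones. Of 2187 unsaturated tested probes without a name 270 (12.3%) were lower and 142 (6.49%) higher at 180 days, against 152 (2.82%) lower and 340 (6.31%) higher of 5388 named probes. What they measure was not looked into here.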
